A study of Homo sapiens with 6 samples.

Results

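CITED2 and 9 genes of the cellular response to low oxygen were examined in OVCAR8, a high-grade serous ovarian cancer cell line. The listed genes were CITED2, HIF1A, EPAS1, EGLN1, EGLN3, VEGFA, ADM, BNIP3, NDRG1 and CA9. CITED2 was picked from the measured values of these samples, by its rise with DZNep, so its levels are described without a test in any comparison. The other 9 were listed as genes of the pathway. Of the 10 listed genes, 9 were among the 14930 genes of the expression matrix. CA9, a carbonic anhydrase, was not in the matrix, so it has no value here. A minimum of 10 in at least 2 of the 6 samples was passed by 9671 genes, 7 of the listed genes among them. EPAS1 and EGLN3 did not reach it.

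RNA-Seq was performed on 3 groups of OVCAR8 cells with 2 replicates each, all in RPMI1640 medium and collected after 72 hours. Ctrl cells received DMSO. DZNep cells received 3-deazaneplanocin A, a compound that lowers EZH2 protein and inhibits histone methylation, at 5 mM by the sample labels and 5 μM by the study's methods. shEZH2 cells carried a doxycycline-inducible hairpin against EZH2 and received doxycycline at 1 mg/mL by the labels and 1 μg/mL by the methods. shEZH2 rests on 1 hairpin line. No hairpin-free cells given doxycycline, no uninduced hairpin cells and no scramble line are named among these samples. The effects of doxycycline, of the hairpin and of the line itself therefore cannot be told apart. No low-oxygen treatment is named for any group, and nothing says whether replicates came from separate cultures, so p-values measure the spread between these samples, which may be technical.

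Cells respond to low oxygen through the hypoxia-inducible factors (HIF). HIF1A and EPAS1 encode the alpha subunits, which the prolyl hydroxylases EGLN1 and EGLN3 mark for degradation while oxygen is present. Without that mark, the alpha subunits pair with ARNT, bind short DNA motifs and recruit the coactivators CREBBP and EP300 to genes such as VEGFA, ADM, BNIP3, NDRG1 and CA9. CITED2 is itself induced by HIF and competes with the alpha subunits for CREBBP and EP300, which makes it a negative regulator of the response. Much of the control of the alpha subunits acts on protein, which RNA-Seq does not measure.

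Promoter sequence is shown for the 3 members that moved most with DZNep among those with an entry in the reference, because HIF binds the letters ACGTG or GCGTG. Each is the 250 bases before the start site in RefSeq (GRCh38.p14), 5′ to 3′ on the gene's strand, with matches to ACGTG or GCGTG on either strand in capitals. The CITED2 window is chr6:139374649-139374898, minus strand, the ADM window chr11:10304823-10305072, plus strand, and the BNIP3 window chr10:131981924-131982173, minus strand.
CITED2: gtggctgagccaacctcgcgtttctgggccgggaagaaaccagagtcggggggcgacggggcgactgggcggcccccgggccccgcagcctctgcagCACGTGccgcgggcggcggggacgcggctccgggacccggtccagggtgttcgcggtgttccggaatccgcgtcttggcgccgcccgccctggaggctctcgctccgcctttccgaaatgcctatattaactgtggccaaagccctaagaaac
ADM: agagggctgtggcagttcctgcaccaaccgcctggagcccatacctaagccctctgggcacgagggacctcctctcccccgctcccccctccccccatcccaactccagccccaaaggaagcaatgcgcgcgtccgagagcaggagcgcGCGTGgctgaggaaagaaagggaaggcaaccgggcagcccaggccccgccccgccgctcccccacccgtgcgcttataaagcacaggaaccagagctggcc
BNIP3: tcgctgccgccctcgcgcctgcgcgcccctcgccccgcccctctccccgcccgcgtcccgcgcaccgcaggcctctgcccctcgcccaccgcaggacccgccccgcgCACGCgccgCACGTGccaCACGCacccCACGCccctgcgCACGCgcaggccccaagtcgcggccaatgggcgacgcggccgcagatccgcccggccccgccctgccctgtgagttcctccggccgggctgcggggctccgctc

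The CITED2 window held 2 matches, which are the same CACGTG read on both strands. ADM held 1 match and BNIP3 held 6, of which 2 are again the strands of a single CACGTG. Such letters are common. Of 35116 promoter windows of this length, 43.2% held at least 1 match, and 0.646% held 6 or more. EPAS1, EGLN1, CA9 and the first HIF1A window each held 1 match before the start site, and EGLN3 held none. VEGFA and NDRG1 had no entry. CITED2 and ADM, which were higher with DZNep, and BNIP3, which was lower, all carry these letters, and a match of letters is not a measured binding site.

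The deposited value of a gene is a whole number on a scale on which each sample sums to between 999956 and 1000068, so it is a share of the sample and not a read count. The number of reads behind it is unknown, and no interval for counting error is given. Fold changes were fitted with limma on log2(TMM-scaled value + 1), which understates the change of low genes, and p-values are two-sided and adjusted by Benjamini-Hochberg over all 9671 tested genes. EZH2, the targeted gene, was 36 and 42 in Ctrl, 26 and 26 in DZNep and 18 and 18 in shEZH2. It was lower in DZNep by a log2 fold change of -0.63 ± 0.18 (SE; adjusted p = 0.0255, limma) and lower in shEZH2 by -1.12 ± 0.18 (adjusted p = 0.016, limma). Both calls depended on single samples. In DZNep the adjusted p (limma) was 0.0872 without Ctrl replicate 2, 0.0704 without DZNep replicate 2, 0.0883 without shEZH2 replicate 1 and 0.0915 without shEZH2 replicate 2. In shEZH2 it was 0.214 without replicate 1 of that group and 0.17 without replicate 2, and EZH2 was lower in both groups in each of these fits. Of 8 markers of serous ovarian carcinoma 7 were in the matrix, with sums of 2577 to 8585 per sample, although PAX8, WT1 and EPCAM, among their defining genes, did not exceed 20. These markers moved in opposite directions with DZNep. The keratin genes KRT8 and KRT18, which carry most of the sum, rose from means of 918.5 and 1236 in Ctrl to 3293 and 4095.5 in DZNep, whereas MSLN fell from 163 to 40.5 and PAX8 from 18 to 11.5 (adjusted p = 0.000851, 0.00126, 0.000483 and 0.0277, limma), and their part in the results below was not tested. The 5 fibroblast and blood markers in the matrix, of 11 listed, summed to between 15 and 23 in every sample. The shEZH2 samples lay closer together than the others. Over the tested genes, the SD of the log2 difference between replicates was 0.141 in shEZH2, 0.428 in Ctrl and 0.447 in DZNep. Without read counts, it could not be tested whether they are separate libraries, so the call of ADM in shEZH2 and the counts of called genes are also given with both shEZH2 samples averaged into 1.

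CITED2 (ENSG00000164442.11, chr6:139371807-139374648, minus strand, GRCh38) was low in Ctrl, highest in DZNep and intermediate in shEZH2. Its deposited values were 33 and 31 in Ctrl, 323 and 358 in DZNep and 115 and 97 in shEZH2. No group overlapped another. CITED2 was picked for its rise with DZNep, so the gap between DZNep and Ctrl is a description and not evidence. The mean was 32 ± 1.41 (SD, n = 2) in Ctrl, 340.5 ± 24.7 in DZNep and 106 ± 12.7 in shEZH2. Set against Ctrl, the mean was 10.6-fold higher in DZNep and 3.31-fold higher in shEZH2. The fitted log2 fold change was 3.30 ± 0.17 (SE) in DZNep and 1.64 ± 0.17 in shEZH2. shEZH2 was lower than DZNep by a log2 fold change of -1.65 ± 0.17. In bulk RNA, a change in the share of cells that express a gene and a change in RNA per cell cannot be told apart, here and for every gene below.

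**Figure D1:**
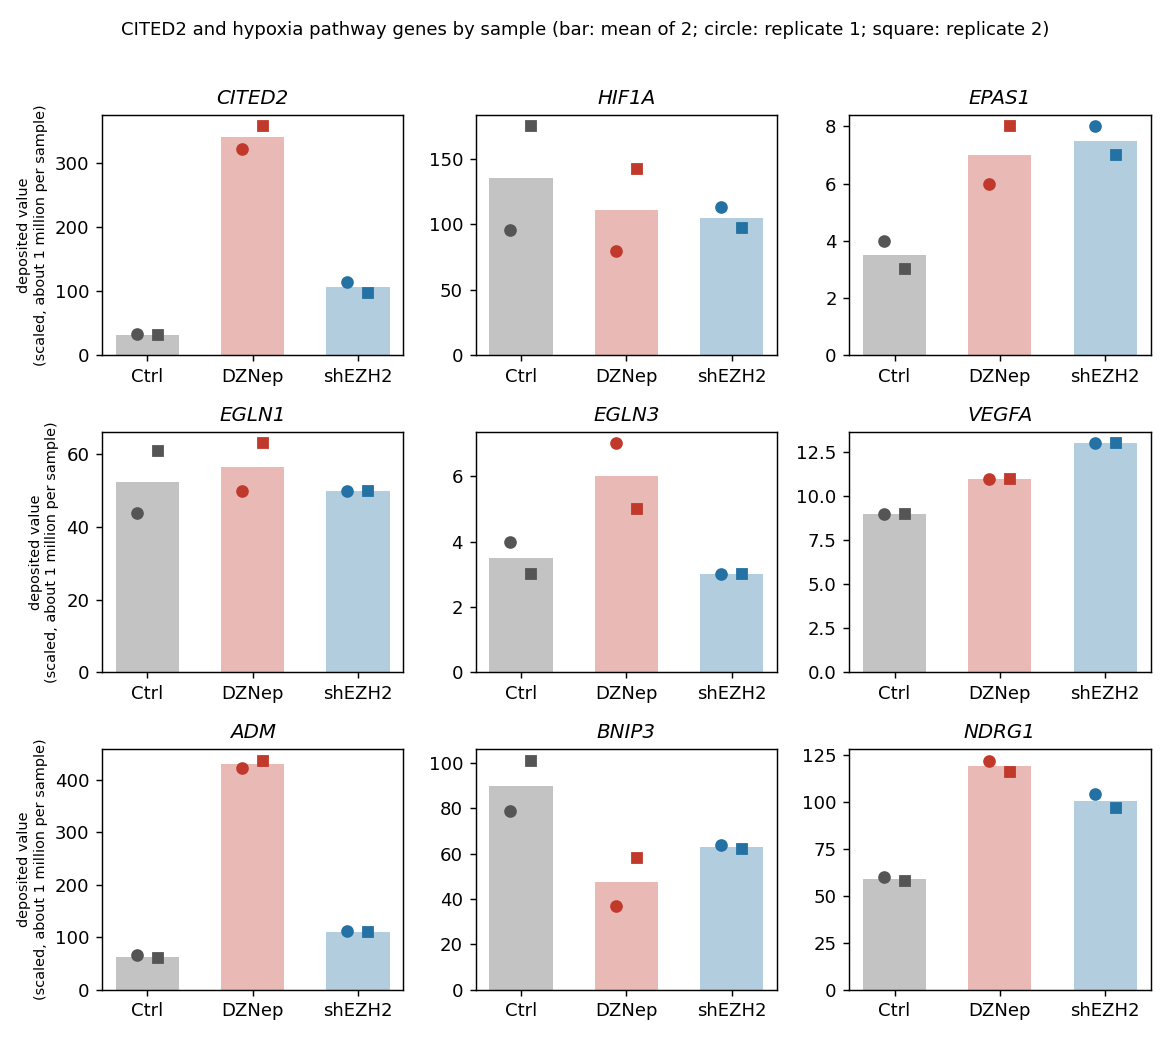
Deposited values (a share of a sample total of 999956 to 1000068) of the 9 members in the matrix, 1 panel per gene, for Ctrl, DZNep and shEZH2; bars are means of 2 and points are the replicates, and each panel has its own axis from 0. CITED2 and ADM are highest in DZNep at 323 to 436, BNIP3 is lowest there, and the HIF1A replicates spread from 80 to 175.

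Of the HIF alpha subunits, HIF1A did not separate the groups as CITED2 did. HIF1A was 96 and 175 in Ctrl, 80 and 142 in DZNep and 113 and 97 in shEZH2. All 3 groups overlapped, and the widest gap was between the replicates of Ctrl. The log2 fold change was -0.35 ± 0.27 (SE) in DZNep (95% confidence interval -0.98 to 0.28, adjusted p = 0.331, limma) and -0.35 ± 0.27 in shEZH2 (adjusted p = 0.433, limma). A fall to about the lower bound or a rise to about the upper one is within these intervals, so the comparison does not show that HIF1A was unchanged. A single Ctrl sample moved both values: in DZNep the log2 fold change was -0.70 without Ctrl replicate 1 (adjusted p = 0.0511, limma) and -0.0008 without Ctrl replicate 2 (adjusted p = 0.999, limma), and in shEZH2 -0.70 (adjusted p = 0.0934, limma) and -0.0038 (adjusted p = 0.995, limma). It was also -0.07 in DZNep without DZNep replicate 1 and -0.65 without DZNep replicate 2. Between samples of the same number, DZNep minus Ctrl was -0.28 for replicate 1 and -0.42 for replicate 2 on the log2 scale. For shEZH2 minus Ctrl these differences were 0.08 and -0.79. Nothing says that the replicate numbers mark a shared culture. HIF1A was among the less reproducible genes, with a ratio of replicate 2 to replicate 1 of 1.82 in Ctrl, 1.78 in DZNep and 0.858 in shEZH2. In Ctrl, 91.2% of the tested genes differed less between replicates on the log2 scale, and in DZNep 80.5%.

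EPAS1, the other alpha subunit, lay close to the resolution of the scale. It was 4 and 3 in Ctrl, 6 and 8 in DZNep and 8 and 7 in shEZH2. Both treated groups lay above Ctrl without overlap, at values where rounding to a whole number is a large share of the difference. EPAS1 did not enter the test. With a minimum of 1 in at least 2 samples its log2 fold change was 0.77 ± 0.23 in DZNep (adjusted p = 0.035, limma) and 0.88 ± 0.23 in shEZH2 (adjusted p = 0.071, limma).

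Of the prolyl hydroxylases, EGLN1 did not pass the test in either group and EGLN3 was too low to enter it. EGLN1 was 44 and 61 in Ctrl, 50 and 63 in DZNep and 50 and 50 in shEZH2, and all groups overlapped. Its log2 fold change was 0.04 ± 0.18 in DZNep (95% confidence interval -0.37 to 0.45, adjusted p = 0.86, limma) and -0.10 ± 0.18 in shEZH2 (adjusted p = 0.752, limma), and the sign of both turned when single samples were left out. EGLN3 was 4 and 3 in Ctrl, 7 and 5 in DZNep and 3 and 3 in shEZH2, below the minimum for the test. With the minimum of 1 its log2 fold change was 0.57 ± 0.28 in DZNep (adjusted p = 0.149, limma).

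ADM, which encodes the vasodilator peptide adrenomedullin, rose in both treated groups. ADM (chr11:10305073-10307397, plus strand, GRCh38) was 66 and 60 in Ctrl, 422 and 436 in DZNep and 111 and 110 in shEZH2. The groups stood in the order Ctrl, shEZH2, DZNep without overlap, as they did for the members CITED2 and NDRG1. How many of all tested genes share this order was not counted. The mean was 6.81-fold higher in DZNep than in Ctrl, with a log2 fold change of 2.68 ± 0.17 (SE; adjusted p = 6.1e-05, limma), and 1.75-fold higher in shEZH2, with 0.75 ± 0.17 (adjusted p = 0.0384, limma). Between the treated groups, ADM was lower in shEZH2 by -1.92 ± 0.17 (adjusted p = 0.00256, limma). The call in shEZH2 did not hold in every fit. Its adjusted p was 0.335 with the shEZH2 samples averaged, 0.149 without Ctrl replicate 2, 0.302 without shEZH2 replicate 1 and 0.329 without shEZH2 replicate 2, where a lone sample is assumed to vary like the other groups.

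NDRG1, a stress-responsive gene known as a HIF target, was 60 and 58 in Ctrl, 122 and 116 in DZNep and 104 and 97 in shEZH2. Both treated groups lay above Ctrl. NDRG1 rose in DZNep, with a mean 2.02-fold that of Ctrl and a log2 fold change of 0.93 ± 0.18 (SE; adjusted p = 0.00493, limma). In shEZH2 the log2 fold change was 0.71 ± 0.18 and the adjusted p of 0.0502 (limma) fell just outside the threshold of 0.05. It passed in 9 of 16 alternatives, among them the values as deposited (adjusted p = 0.0225, limma) and median-ratio scaling (adjusted p = 0.0498, limma). The difference between shEZH2 and DZNep was -0.22 ± 0.18, with a 95% confidence interval of -0.63 to 0.20 (adjusted p = 0.474, limma).

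BNIP3, a mitochondrial protein that promotes mitophagy, moved against ADM and NDRG1. BNIP3 (chr10:131967684-131981967, minus strand, GRCh38) was 79 and 101 in Ctrl, 37 and 58 in DZNep and 64 and 62 in shEZH2. Every treated sample was below both Ctrl samples. BNIP3 fell in DZNep, with a log2 fold change of -1.003 ± 0.19 (SE; adjusted p = 0.00442, limma). In shEZH2 it was -0.55 ± 0.19 (adjusted p = 0.109, limma), which did not pass.

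VEGFA, which encodes the main angiogenic growth factor, lay near the minimum for the test. It was 9 in both Ctrl samples, 11 in both DZNep samples and 13 in both shEZH2 samples. The groups did not overlap, but a step of 1 is the finest the scale can show, and rounding alone leaves the log2 ratio of the deposited means anywhere between 0.14 and 0.44 in DZNep and between 0.40 and 0.67 in shEZH2. VEGFA passed the minimum through the treated samples and not through Ctrl, which favours a higher value there, so its fitted values are given without a p. The fitted log2 fold change was 0.20 ± 0.20 in DZNep and 0.44 ± 0.20 in shEZH2. VEGFA is counted below among the tested members and was not called in either group.

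**Figure D2:**
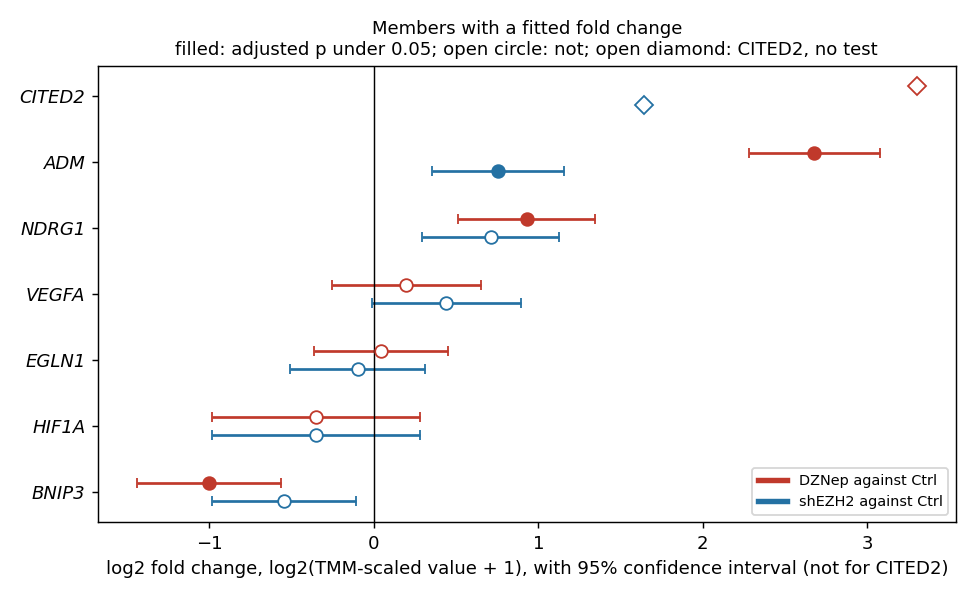
Log2 fold change against Ctrl with its 95% confidence interval for the 7 members above the minimum, in DZNep and in shEZH2; filled points passed an adjusted p of 0.05, and CITED2 is drawn as a diamond with no interval because it was not tested. ADM at 2.68 and BNIP3 at -1.003 in DZNep lie on opposite sides of 0, and the HIF1A and EGLN1 intervals include 0.

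The 6 tested members other than CITED2 did not move in a single direction. In DZNep, ADM and NDRG1 rose and BNIP3 fell, so 2 were called higher and 1 lower at an adjusted p under 0.05 (limma), where 22.4% of all tested genes were called higher and 20.4% lower. In shEZH2, 1 was called higher and 0 lower, against 3.91% and 4.53% of all tested genes. At an unadjusted p under 0.05, 2 were higher and 1 lower there. Between shEZH2 and DZNep, 0 were higher and 1 was lower, against 4.88% and 4.42%, and at an unadjusted p under 0.05 there was 1 in each direction. The share of all tested genes at an unadjusted p under 0.05 was not counted, so the unadjusted counts have no background. With the thresholds named in the study's methods, a log2 change of more than 1 in either direction with p under 0.05 before adjustment, 1 member was higher and 1 lower in DZNep, where 10.5% and 11.8% of all tested genes were. By those thresholds 0 members were higher or lower in shEZH2, where 2.27% and 3.03% of all genes were, and between shEZH2 and DZNep 0 were higher and 1 lower, against 3.42% and 2.1%. The median log2 fold change of the 6 was 0.12 in DZNep and 0.17 in shEZH2, beside 0.02 and -0.01 over all tested genes. DZNep and shEZH2 were compared with the same Ctrl samples, so the 2 sets of values are not independent.

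The spread between replicates differed among the members. HIF1A, EGLN1 and BNIP3 were higher in replicate 2 of both Ctrl and DZNep, while CITED2, ADM, NDRG1 and VEGFA were lower there after TMM scaling. For HIF1A the difference was 0.70 on the log2 scale in Ctrl and 0.57 in DZNep, larger than its fold change in either treatment. For CITED2 it was -0.24 in Ctrl and -0.11 in DZNep.

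**Figure D3:**
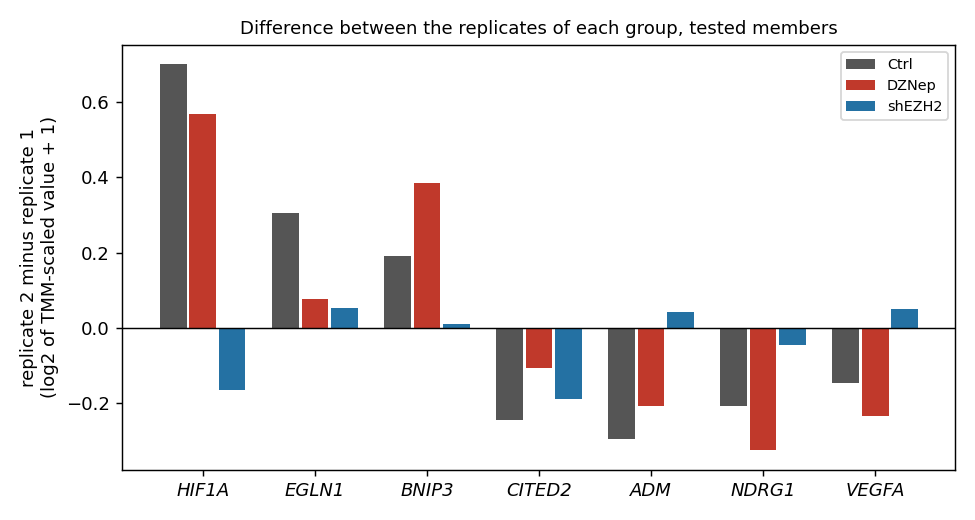
Replicate 2 minus replicate 1 on the log2(TMM-scaled value + 1) scale for the 7 tested members, as bars for Ctrl, DZNep and shEZH2. HIF1A differed most, by 0.70 in Ctrl and 0.57 in DZNep, and the shEZH2 bars lie between -0.19 and 0.05.

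Beyond the members, 85 other genes of the pathway were listed, of which 79 were in the matrix and 67 were tested. In DZNep 22 rose (32.8%) and 9 fell (13.4%), beside the 22.4% and 20.4% of all tested genes. The median of the 67 log2 fold changes was 0.29. In shEZH2 11 rose (16.4%) and 4 fell (5.97%), beside 3.91% and 4.53% of all tested genes, and the median was 0.08. Of the 67, 6 had reached the minimum only through the DZNep samples, so that their entry into the test depended on the level in DZNep, and 5 of these were among the rises in DZNep and 4 among those in shEZH2. Without these 6, 17 of 61 rose in DZNep and 7 of 61 in shEZH2, a count chosen after the data had been seen. These counts moved with single samples, and the share of all tested genes called in each such fit was not counted. The 22 became 13 without DZNep replicate 1 and the 9 became 5 without Ctrl replicate 2 or without either shEZH2 replicate. The 11 became 5 without Ctrl replicate 2, 1 without shEZH2 replicate 1 and 2 without shEZH2 replicate 2 or with the shEZH2 samples averaged. The 4 became 2 without either shEZH2 replicate or with the shEZH2 samples averaged, and 7 without either DZNep replicate.

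Among the partners of the alpha subunits, 2 of 6 tested genes rose (33.3%) and 1 fell (16.7%) in DZNep, where 22.4% and 20.4% of all tested genes did, and 1 rose and 0 fell in shEZH2 (limma), where 3.91% and 4.53% did. At an unadjusted p under 0.05, for which no share of all tested genes was counted, 3 were higher and 0 lower in shEZH2. CREBBP, the coactivator for which CITED2 competes, was 17 and 12 in Ctrl, 43 and 32 in DZNep and 27 and 26 in shEZH2, a log2 fold change of 1.25 ± 0.29 in DZNep (adjusted p = 0.01, limma). Its homologue EP300 was 16 and 15 in Ctrl, 23 and 17 in DZNep and 31 and 24 in shEZH2, and was not called in either (adjusted p = 0.437 and 0.113, limma). ARNT, the shared beta subunit, fell in DZNep by a log2 fold change of -0.60 ± 0.18 (adjusted p = 0.0286, limma). CITED4, a relative of CITED2 that also binds these coactivators, was 2 and 1 in Ctrl, 24 and 21 in DZNep and 13 and 9 in shEZH2. CITED4 was thus near the bottom of the scale in Ctrl and higher in every treated sample. It reached the minimum only through DZNep, so its values are given without a p. CITED4 is the 1 gene of this list counted above as rising in shEZH2, and it is among the 2 counted as rising in DZNep. Of the 5 tested genes that did not depend on DZNep to pass, CREBBP alone was called higher in DZNep.

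In the oxygen-sensing machinery, 3 of 11 tested genes rose (27.3%) and 2 fell (18.2%) in DZNep, shares near the 22.4% and 20.4% of all tested genes, and 1 rose and 0 fell in shEZH2 (limma), where 3.91% and 4.53% of all tested genes did. At an unadjusted p under 0.05, for which no share of all tested genes was counted, 3 were higher and 0 lower in shEZH2. EGLN2, the remaining prolyl hydroxylase, was 76 and 67 in Ctrl, 149 and 142 in DZNep and 113 and 100 in shEZH2. It rose in DZNep by a log2 fold change of 0.95 ± 0.19 (adjusted p = 0.0061, limma), and in shEZH2 it was 0.52 ± 0.19 (adjusted p = 0.126, limma). LIMD1, a scaffold that brings prolyl hydroxylases and VHL together, was 22 and 20 in Ctrl, 85 and 93 in DZNep and 55 and 52 in shEZH2. It was called higher in both, with log2 fold changes of 1.96 ± 0.18 (adjusted p = 0.000214, limma) and 1.26 ± 0.18 (adjusted p = 0.0117, limma). Whether this call in shEZH2 and those named below held with the shEZH2 samples averaged was not recorded gene by gene. OS9, which has been found to bind prolyl hydroxylases, rose in DZNep by 0.57 (adjusted p = 0.0422, limma), while RBX1, a subunit of the VHL ligase, and PSMD10, a proteasome chaperone, fell there, at -0.51 (adjusted p = 0.0346, limma) and -0.71 (adjusted p = 0.0174, limma). VHL, the ubiquitin ligase subunit that recognises hydroxylated alpha subunits, was not called in either, at 0.37 ± 0.16 (adjusted p = 0.101, limma) and 0.35 ± 0.16 (adjusted p = 0.21, limma).

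HIF targets outside glycolysis went both ways. Of 31 tested, 13 rose (41.9%) and 4 fell (12.9%) in DZNep, where 22.4% and 20.4% of all tested genes did, and 8 rose (25.8%) and 2 fell (6.45%) in shEZH2, where 3.91% and 4.53% did. In each group 3 of the rises were genes that had reached the minimum only through DZNep. STC2, a secreted glycoprotein, was 103 and 93 in Ctrl, 561 and 590 in DZNep and 317 and 319 in shEZH2, with log2 fold changes of 2.47 ± 0.17 (adjusted p = 7.24e-05, limma) and 1.64 ± 0.17 (adjusted p = 0.00484, limma). It stood in the order Ctrl, shEZH2, DZNep without overlap, as did CITED2, ADM and NDRG1 among the members. MAFF, a small Maf transcription factor, rose by 1.18 in DZNep and 0.88 in shEZH2 on the log2 scale, and the collagen cross-linking enzyme LOXL2 by 0.77 and 0.96. JMJD6, a dioxygenase of the JmjC family, rose in DZNep by 0.94 (adjusted p = 0.00623, limma) and was 0.48 in shEZH2 (adjusted p = 0.15, limma). The endothelial peptide gene EDN1 was 2 and 2 in Ctrl and 20 and 27 in DZNep, and ANKRD37 was 1 and 2 in Ctrl and 28 and 33 in DZNep. In shEZH2 EDN1 was 5 and 6 and ANKRD37 was 5 and 7. Both genes passed the minimum only through DZNep, so their values are given without a test, although both are among the rises counted above.

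The targets that fell included the closest relative of BNIP3. BNIP3L, the paralogue of BNIP3 in mitophagy, was 40 and 75 in Ctrl, 16 and 27 in DZNep and 34 and 32 in shEZH2, and fell in DZNep by a log2 fold change of -1.43 ± 0.28 (adjusted p = 0.0049, limma). P4HA1, a collagen prolyl hydroxylase, also fell, at -1.58 ± 0.23 (adjusted p = 0.00153, limma), as did GBE1, the glycogen branching enzyme, at -1.48 ± 0.23 (adjusted p = 0.00177, limma). In shEZH2, GBE1 fell again, at -1.02 ± 0.23 (adjusted p = 0.0355, limma), whereas BNIP3L and P4HA1 did not pass, at -0.76 (adjusted p = 0.118, limma) and -0.75 (adjusted p = 0.0825, limma). IGFBP3, an insulin-like growth factor binding protein, was 100 and 101 in Ctrl, 79 and 91 in DZNep and 32 and 27 in shEZH2. It fell in shEZH2 (log2 fold change -1.79 ± 0.17, adjusted p = 0.00318, limma) and was lower there than in DZNep by -1.47 ± 0.17 (adjusted p = 0.00407, limma).

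Of 19 tested HIF targets of glycolysis and glucose uptake, 4 rose (21.1%) and 2 fell (10.5%) in DZNep, beside 22.4% and 20.4% of all tested genes, and 1 rose (5.26%) and 2 fell (10.5%) in shEZH2 (limma), beside 3.91% and 4.53%. SLC2A3, a glucose transporter, was 51 and 52 in Ctrl, 135 and 146 in DZNep and 88 and 83 in shEZH2, and rose in both, by 1.36 (adjusted p = 0.000593, limma) and 0.67 (adjusted p = 0.0429, limma) on the log2 scale. PFKFB3, which makes an activator of phosphofructokinase, and the triose phosphate isomerase TPI1 rose in DZNep, by 0.85 and 0.73 on the log2 scale. The low-level hexokinase HK2 was 6 and 6 in Ctrl, 11 and 13 in DZNep and 7 and 7 in shEZH2. HK2 passed the minimum only through DZNep, so it is given without a test, although it is among the 4 counted as rising. SLC2A1, the glucose transporter most used as a hypoxia marker, was 57 and 48 in Ctrl, 70 and 65 in DZNep and 37 and 41 in shEZH2, and was not called in either. The glycolytic enzymes PGK1 and LDHA were not called in either group, with log2 fold changes of -0.11 (adjusted p = 0.664, limma) and 0.38 (adjusted p = 0.0738, limma) in DZNep and -0.37 (adjusted p = 0.241, limma) and 0.08 (adjusted p = 0.749, limma) in shEZH2. The phosphofructokinase genes PFKP and PFKL were the ones that fell, PFKP from a mean of 2739 in Ctrl to 68 in DZNep and 437 in shEZH2, and PFKL from 133 to 42 and 73.5.

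**Figure D4:**
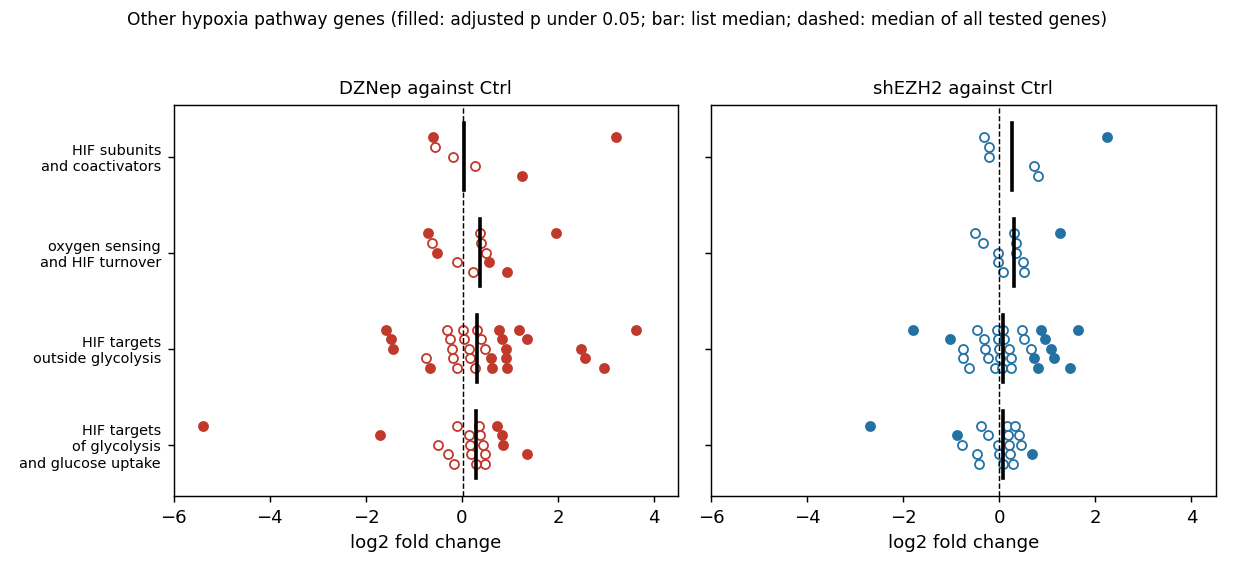
Log2 fold change against Ctrl of the 67 other pathway genes tested, in 4 lists, for DZNep (left) and shEZH2 (right); each point is a gene, filled where the adjusted p was under 0.05, with the list median as a bar and the median of all tested genes as a dashed line. In both panels filled points lie on either side of 0, and PFKP is the lowest point, at -5.38 and -2.69.

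Between shEZH2 and DZNep, 1 of the 67 genes was higher in shEZH2 (1.49%) and 10 were lower (14.9%; limma), beside 4.88% and 4.42% of all tested genes, and the median was -0.10. The one higher was PFKP, at a log2 difference of 2.69 ± 0.21 (adjusted p = 0.00159, limma). The 10 lower genes included IGFBP3, the transferrin receptor gene TFRC at -1.01, STC2 at -0.83, the enolase gene ENO2 at -0.93, LIMD1 at -0.70 and SLC2A3 at -0.69. ANKRD37, EDN1 and FLT1 were also among the 10. These genes passed the minimum only through DZNep, which favours a lower value in shEZH2, so their calls are not evidence of a difference. The 10 became 2 to 4 when any one of the DZNep or shEZH2 samples was left out and 3 with the shEZH2 samples averaged. The 1 became 3 without either Ctrl replicate and 2 without either DZNep replicate.

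CITED2 also binds transcription factors outside the HIF pathway. Of 10 listed partners, 9 were in the matrix and 6 were tested, of which 2 rose and 2 fell in DZNep (33.3% each, beside 22.4% and 20.4% of all tested genes) and 1 rose and 0 fell in shEZH2 (limma), beside 3.91% and 4.53%. At an unadjusted p under 0.05, for which no share of all tested genes was counted, 2 were higher and 1 lower in shEZH2. SMAD3, a mediator of TGF-beta signalling, was 15 and 16 in Ctrl, 24 and 37 in DZNep and 32 and 29 in shEZH2, and rose in both (adjusted p = 0.0113 and 0.0348, limma). TFAP2A, a partner in development, was 7 and 7 in Ctrl, 10 and 15 in DZNep and 15 and 12 in shEZH2. It is among the 2 counted as rising in DZNep. TFAP2A passed the minimum through the treated samples and not through Ctrl, so its values are given without a p. SMAD4, the common SMAD, fell in DZNep by a log2 fold change of -0.63 ± 0.20 (adjusted p = 0.0342, limma). PPARG, a nuclear receptor, was 14 and 13 in Ctrl, 6 and 7 in DZNep and 8 and 8 in shEZH2. It is among the 2 counted as falling in DZNep. PPARG passed the minimum only through Ctrl, so its values are also given without a p. SMAD2 and LHX2 were tested and not called in either group. PPARA, TFAP2C and WT1 were between 1 and 7 in every sample, below the minimum, and TFAP2B was not in the matrix.

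The genes whose profile over the 6 samples lay nearest to that of CITED2 were sought among 3322 tested genes with a mean of at least 50, by the Euclidean distance between centred log2 values. The nearest was THBS1, which encodes the matrix protein thrombospondin, at a distance of 0.214. It was 46 and 45 in Ctrl, 443 and 493 in DZNep and 141 and 120 in shEZH2, so its level followed that of CITED2 sample by sample. GABARAPL1, an autophagy gene, followed at 0.522, NFKBIA, the inhibitor of NF-kappa B, at 0.597, EPHA2, a receptor tyrosine kinase, at 0.652, and PTX3, a secreted pattern recognition protein, at 0.695. ADM was the nearest of the other members, at rank 9. The distance describes likeness over 6 samples in 3 groups and was given no test.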

How the data were processed

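RNA-Seq of 6 OVCAR8 samples was analysed. Per the labels and the study's methods, the authors depleted ribosomal RNA, made stranded libraries and processed the reads with fastp (trimming), STAR (alignment, GRCh38) and RSEM (quantification). For STAR and RSEM the version is not given in the sources used here. The deposited matrix holds a score: the authors scaled each sample to a common total (999956 to 1000068) and rounded to whole numbers, although the deposit calls it a count matrix. Read depth is therefore unknown, intervals cover replicate spread only, and the edgeR test of the study's methods was not used, because it needs counts.

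Unweighted TMM factors (0.92 to 1.12) were computed from the scores, trimming 30% of log ratios and 5% of mean values at each end. Genes with at least 10 in at least 2 samples were fitted with limma 3.58.1 (R 4.3.3; lmFit, eBayes with trend) on log2(value + 1), with all 6 samples in 1 fit of group means. Calls were made at a Benjamini-Hochberg adjusted p under 0.05, two-sided. The scripts were tested on simulated data.

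The members and the gene lists were chosen with earlier results of these data known. The text names the 10 members, EZH2, genes of the 4 hypoxia lists (any called gene, whatever its mean, and always the 3 largest called rises and falls per list and contrast among genes with a mean of at least 20), the listed CITED2 partners, and the 5 genes nearest to CITED2. EP300, VHL, SLC2A1, PGK1 and LDHA fall outside this rule and were chosen after their values were seen. Gene coordinates came from GENCODE v44 and promoters from RefSeq, where 8 of the 10 members had an entry. Alternatives were other scalings, pseudocounts and filters, fits restricted to 2 groups, the replicate block, the thresholds of the methods, averaged shEZH2 samples, each sample left out and, added after the data had been seen, pathway counts without genes that reached the minimum only through DZNep. Figures were drawn with matplotlib. The other assays of the study were not analysed here.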

Additional observations from a re-analysis of the deposited data

How the results depend on the processing

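The precision of every value is limited by 2 replicates per group, by rounding to whole numbers, which matters most for EPAS1, EGLN3 and VEGFA, and by a read depth that is unknown. In DZNep the fold changes of ADM, BNIP3 and NDRG1 kept their direction and their call under all 16 alternatives. The CITED2 fold change in DZNep was 3.16 with a pseudocount of 5 and ranged from 3.18 to 3.42 with a sample left out. CITED2 was picked for this rise, so the range is a description only.

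The share of all tested genes called was not counted for the altered fits, here or above, apart from the thresholds of the methods. The number called over all genes can change with the fit too, so a change in a count cannot be read as particular to the pathway. In DZNep, the members called higher were 1 with the thresholds of the methods. The other pathway genes called higher were 10 with those thresholds and 13 to 23 with a sample left out, and those called lower were 5 with those thresholds, with only the 2 groups compared or with the shEZH2 samples averaged, and 5 to 10 with a sample left out. In shEZH2, the members called higher were 2 as deposited, with median-ratio scaling, a pseudocount of 5, a minimum of 20, or only the 2 groups compared, 0 with a minimum of 1, averaged shEZH2 samples or the thresholds of the methods, and 0 to 2 with a sample left out. The other pathway genes called higher in shEZH2 were 7 without the genes that reached the minimum only through DZNep, 2 with averaged samples, 6 with the thresholds of the methods and 1 to 10 with a sample left out, and those called lower were 2 with a minimum of 1 or averaged samples, 7 with only the 2 groups compared and 2 to 7 with a sample left out. Between shEZH2 and DZNep, those called higher were 2 as deposited or with median-ratio scaling, 3 with only the 2 groups compared and 1 to 3 with a sample left out, and those called lower were 3 with averaged samples, 6 with the thresholds of the methods and 2 to 13 with a sample left out.

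EZH2 in DZNep was -0.63 with only the 2 groups compared (adjusted p = 0.088, limma), -0.64 with averaged shEZH2 samples (adjusted p = 0.0886, limma) and -0.76 to -0.52 with a sample left out. EZH2 in shEZH2 was -1.11 with averaged samples (adjusted p = 0.197, limma) and -1.15 to -1.06 with a sample left out. NDRG1 in shEZH2 was called in 9 alternatives, and ADM in shEZH2 was also lost with a minimum of 1 (adjusted p = 0.0534, limma). The sign turned for EGLN1, to -0.11 in DZNep without Ctrl replicate 1, to -0.0061 without DZNep replicate 2 and to 0.0543 in shEZH2 without Ctrl replicate 2, within ranges of -0.11 to 0.1953 and -0.251 to 0.0543 with a sample left out. It turned for HIF1A between shEZH2 and DZNep, to 0.0102 with median-ratio scaling, 0.02 with averaged samples, 0.32 without DZNep replicate 2 and 0.08 without shEZH2 replicate 2, within a range of -0.287 to 0.3185 with a sample left out. The cause was not tested.

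The replicate numbers are shared by the groups, but nothing says that they mark a shared culture. Deviations of same-numbered samples correlated at 0.786 for Ctrl and DZNep, -0.0242 for Ctrl and shEZH2 and -0.0385 for DZNep and shEZH2. With the replicate block, 2 members were called higher and 1 lower in shEZH2, with adjusted p-values of 0.00168 for NDRG1 and 0.019 for BNIP3 (limma), 17 other pathway genes were higher and 9 lower there, and 7 were higher and 16 lower between shEZH2 and DZNep. The share of all tested genes called with the block was not counted, so these counts cannot be set against it. The block fits 1 replicate shift for all groups, which the shEZH2 deviations did not follow.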
